A study of Mus musculus with 3 samples.

Results

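Notch is a juxtacrine signalling pathway, and 10 of its genes were followed here across the vessel-wall and stromal cells of mouse bone marrow: the ligand genes Dll1, Dll4, Jag1 and Jag2, the receptor genes Notch1 and Notch4, the target genes Hey1, Hes1 and Nrarp, and Rbpj, which encodes the DNA-binding partner of the activated receptor. The 10 genes were chosen by symbol, not by their values, from the 31053 genes of the count matrices, and each symbol matched 1 gene. They were compared among 3 cell classes set by UMI counts, a UMI (unique molecular identifier) standing for 1 captured transcript. LepR stromal cells had at least 50 UMIs of Cxcl12, at least 1 of Lepr and Adipoq together and at most 2 of Cdh5. Arterial cells had at least 1 UMI of Cdh5, under 50 of Cxcl12, at most 1 of Stab2 and at least 2 of the 4 genes Sox17, Sema3g, Fbln2 and Gja4 detected. Sinusoidal cells had at least 1 UMI of Cdh5, under 50 of Cxcl12 and at least 2 of Stab2. No cell met more than 1 of these gates.

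The study measured single-cell RNA from LepR+ cells and endothelial cells of tibial marrow in 3 libraries, 1 per genotype, all from C57Bl/6JCrl mice given tamoxifen by gavage. The VC library came from Cdh5CreERT2;Vegfc flox/flox mice, where the promoter of Cdh5, an endothelial gene, drives a Cre enzyme that tamoxifen switches on. The FLOX library came from Vegfc flox/flox mice with no Cre in the label, and the WT library from mice labelled WT. How many mice were pooled for a library, and their age, is not stated in the labels. With 1 library per genotype a difference between genotypes cannot be told apart from a difference between preparations. Cell classes could be tested over the 3 libraries, whereas genotypes could not be tested.

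In Notch signalling a ligand on one cell binds a receptor on its neighbour, the receptor is cleaved by ADAM proteases and gamma-secretase, and its freed intracellular domain joins Rbpj in the nucleus to switch on genes such as those of the Hes and Hey repressors. Nrarp is induced by the pathway and restrains it. In endothelium the pathway is known for arterial specification and for limiting vessel sprouting, and in marrow for ligands offered by the niche to blood cells.

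Upstream sequence was read for the members from RefSeq promoter windows (build GRCm38.p6), of which 8 of 10 members had at least 1, 10 windows in all. Hes1 and Hey1 had none. In the 250 bases before each start, both strands were searched for the RBPJ core TGGGAA, which reads TTCCCA on the other strand, and the palindromic E-box CACGTG, bound by basic helix-loop-helix factors, the class to which Hes and Hey proteins belong. The RBPJ core stood in 21.6% and the E-box in 6.02% of 32851 windows of the same length over all genes. Shown are 3 genes that were higher in arterial than in sinusoidal cells (Nrarp, Dll4 and Jag2) and Rbpj, which was highest in LepR stromal cells, each 5′ to 3′ with motif matches in capitals. The windows lie at chr2:25180508-25180757 on the plus strand for Nrarp, chr2:119325534-119325783 on the plus strand for Dll4, chr12:112929496-112929745 on the minus strand for Jag2 and chr5:53590096-53590345 on the plus strand for Rbpj.
Nrarp: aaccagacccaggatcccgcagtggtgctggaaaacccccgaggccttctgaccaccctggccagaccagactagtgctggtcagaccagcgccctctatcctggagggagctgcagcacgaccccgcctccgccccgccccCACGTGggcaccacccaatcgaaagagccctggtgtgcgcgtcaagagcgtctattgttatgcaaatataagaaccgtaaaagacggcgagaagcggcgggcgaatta
Dll4: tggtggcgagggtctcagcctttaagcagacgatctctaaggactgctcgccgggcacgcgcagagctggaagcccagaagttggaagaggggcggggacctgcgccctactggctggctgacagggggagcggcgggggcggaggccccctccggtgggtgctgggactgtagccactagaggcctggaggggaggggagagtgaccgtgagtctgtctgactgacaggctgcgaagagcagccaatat
Jag2: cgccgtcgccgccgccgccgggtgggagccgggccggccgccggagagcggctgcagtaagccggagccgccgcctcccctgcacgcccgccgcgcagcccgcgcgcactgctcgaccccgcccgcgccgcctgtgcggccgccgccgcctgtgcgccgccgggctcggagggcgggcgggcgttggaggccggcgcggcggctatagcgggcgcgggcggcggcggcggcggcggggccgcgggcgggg
Rbpj: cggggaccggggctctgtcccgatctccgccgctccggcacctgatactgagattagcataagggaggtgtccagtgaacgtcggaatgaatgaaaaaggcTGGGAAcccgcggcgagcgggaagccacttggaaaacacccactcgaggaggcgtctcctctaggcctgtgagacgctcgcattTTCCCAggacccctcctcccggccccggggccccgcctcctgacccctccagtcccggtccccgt
Nrarp held 1 E-box, which began 108 bases before the start. Rbpj held the RBPJ core at 149 and 65 bases before its start. Neither motif stood in the windows of Notch1, Notch4, Dll1, Dll4, Jag1 and Jag2, which says only that these letters are not in these 250 bases.

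Barcodes were kept with 500 or more genes detected and no more than 10% of UMIs from mitochondrial genes. The LepR stromal gate held 466 VC, 1107 FLOX and 264 WT cells, the arterial gate 89, 189 and 58, and the sinusoidal gate 1643, 3200 and 2992. The summed UMIs of these classes ranged from 710870 (WT arterial) to 39099077 (WT sinusoidal). The libraries shared 3 to 7 barcodes per pair among cells that passed the filter. Levels are CPM, a gene's UMIs per 1000000 UMIs of its class and library, and since the kit counts each transcript once from its 3′ end they need no correction for gene length. Intervals are 95% and cover counting error only. Marker lists were read as a check of the class names, and none of their genes set the 3 class gates. Cd79a of the B lineage list sets the B lineage gate used below. The summed level of 10 LepR stromal genes was 15283 to 20113 CPM in the stromal gate and at most 1146 CPM in the endothelial gates, and that of 10 pan-endothelial genes was 5872 to 8170 CPM in the arterial and sinusoidal gates and at most 117 CPM in the stromal gate. Of 10 arterial markers, 10 reached 10 CPM in the VC and the FLOX arterial gate but only 5 in the WT arterial gate, where the connexin Gja5 and the kinase Bmx had 0 UMIs. Of 8 sinusoidal markers, 7 reached 10 CPM in each arterial gate. They summed to 1316 to 1837 CPM there, against 11521 to 13841 CPM in the sinusoidal gates. The neutrophil granule list of 6 genes summed to 26348 CPM in the VC and 26717 CPM in the FLOX arterial gate, against 346 CPM in the WT arterial gate. In sinusoidal cells this list summed to 4212, 6942 and 719 CPM in VC, FLOX and WT, and in LepR stromal cells to 8549, 3015 and 326 CPM. Smooth muscle and pericyte genes summed to 257, 244 and 60.5 CPM in the arterial gates of VC, FLOX and WT, where 2, 6 and 1 of the 8 genes reached 10 CPM. Their sinusoidal sums were larger, at 272, 315 and 317 CPM with 1 of the 8 genes at 10 CPM, and their stromal sums were 647 to 750 CPM. Vegfc, the targeted gene, stood at 145, 201 and 246 CPM in LepR stromal cells of VC, FLOX and WT, at 0.279, 0.562 and 1.56 CPM in sinusoidal cells, and at 0, 9 and 2 UMIs in arterial cells. The labels do not say whether the counted 3′ reads lie within the floxed part.

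The 3 cell classes differed in most Notch genes. Arterial cells held Jag2, Dll4, Notch4, Nrarp, Hes1 and Hey1 at higher levels than sinusoidal cells, sinusoidal cells held the receptor Notch1 with a mix of Jag1, Dll4 and Dll1 but almost no Hey1, and LepR stromal cells held Jag1, Hes1 and Rbpj with little of any other ligand. In arterial over sinusoidal cells, 6 of the 10 genes were higher and 0 lower at an adjusted p of 0.05, where 10.1% of the 13136 genes tested were higher and 15.5% lower. In LepR stromal over sinusoidal cells 3 were higher and 6 lower, where 30.7% of genes were higher and 30.8% lower. In LepR stromal over arterial cells 2 were higher and 7 lower, where 27.5% of genes were higher and 22.0% lower. All 10 genes passed the filter on low counts. The tests were edgeR's quasi-likelihood test on the 9 sums of 3 classes in 3 libraries, with the library as a block. Benjamini-Hochberg adjustment was over all 13136 genes. The block takes out differences between libraries that all classes share. The p-values therefore rest on how far class differences varied between the 3 libraries, which differ in genotype.

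**Figure D1:**
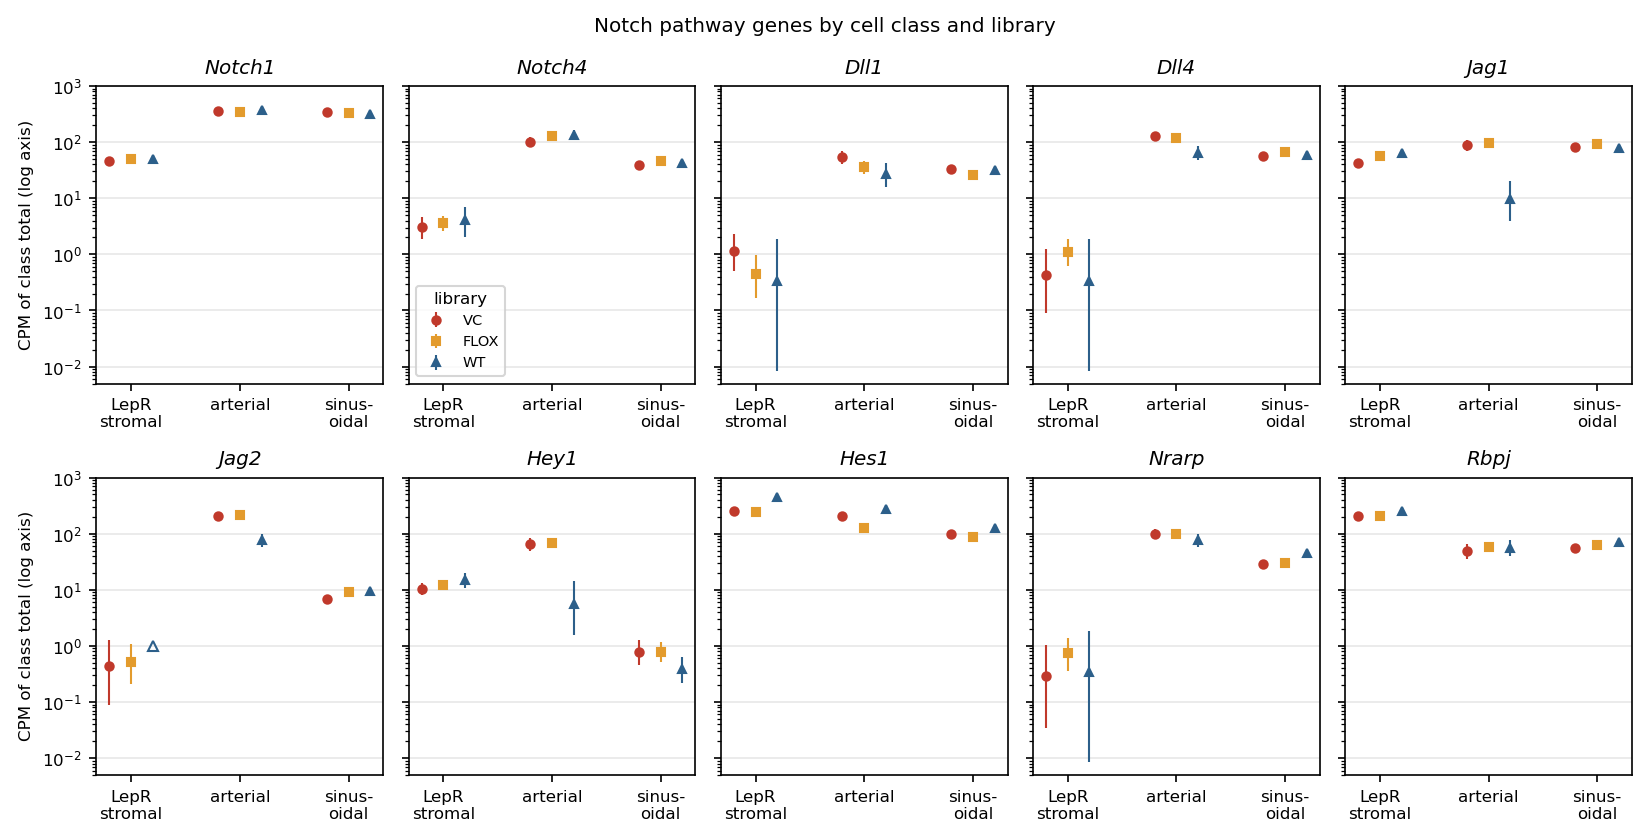
CPM of the 10 Notch genes (log axis) in LepR stromal, arterial and sinusoidal cells, with VC as circles, FLOX as squares and WT as triangles; bars are exact 95% Poisson intervals and the open triangle marks 0 UMIs, drawn at the level of 3 UMIs. Jag2 stood at 76.0 to 218 CPM in arterial cells and at most at 9.34 CPM elsewhere, and the WT arterial points of Jag1, Jag2, Hey1 and Dll4 lie below the VC and FLOX ones.

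Jag2, a Serrate-type ligand gene on chromosome 12 (112907819 to 112929776, minus strand, GRCm38), was an arterial ligand. In LepR stromal cells it had 3, 7 and 0 UMIs in VC, FLOX and WT, and the floor of 3 UMIs for the WT value is 1.007 CPM. In arterial cells it had 203, 218 and 76.0 CPM, and in sinusoidal cells 6.84, 8.99 and 9.34 CPM. The arterial values lay above the sinusoidal ones in every library, by 29.6-fold in VC, 24.3-fold in FLOX and 8.14-fold in WT. The fitted log2 difference, arterial over sinusoidal, was 4.11 ± 0.35 (SE; edgeR, adjusted p = 0.000247). Each SE after ± was derived as the size of the log2 difference divided by the square root of the test's F statistic. LepR stromal cells were lower than sinusoidal cells (edgeR, adjusted p = 0.00113). Against the floor, the WT log2 ratio of LepR stromal over sinusoidal cells was -3.21 or lower.

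Dll4, a Delta-type ligand gene central to arterial and tip cell signalling (chromosome 2, 119325784 to 119335962, plus strand), had 3, 15 and 1 UMIs in LepR stromal cells of VC, FLOX and WT. In arterial cells it had 126, 119 and 64.7 CPM, and in sinusoidal cells 55.9, 65.4 and 58.3 CPM. The arterial level was 2.26-fold the sinusoidal one in VC and 1.82-fold in FLOX, while in WT the ratio was 1.11 with an interval on the log2 scale of -0.30 to 0.57. The log2 difference, arterial over sinusoidal, of 0.63 ± 0.17 passed the test (edgeR, adjusted p = 0.0202). The call was lost without the FLOX library (edgeR adjusted p = 0.104), without the VC library (0.213), without the library block (0.0745) and with DESeq2 (0.0634).

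Dll1, the other Delta-type ligand gene (chromosome 17, 15367354 to 15376872, minus strand), differed little between the endothelial classes. Arterial cells had 54.0, 35.5 and 26.7 CPM in VC, FLOX and WT, and sinusoidal cells 33.2, 25.7 and 31.6 CPM. The arterial value was above the sinusoidal one in VC and FLOX and below it in WT, and the log2 difference of 0.23 ± 0.18 did not pass the test (edgeR, adjusted p = 0.404). In LepR stromal cells Dll1 had 8, 6 and 1 UMIs, lower than in sinusoidal cells by a log2 difference of -5.52 ± 0.26 (edgeR, adjusted p = 1.12e-09).

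Jag1, the Serrate-type ligand gene of chromosome 2 (137081456 to 137116644, minus strand), was the one ligand present in all 3 classes. LepR stromal cells had 42.3, 55.7 and 64.8 CPM in VC, FLOX and WT. Arterial cells had 87.6 CPM in VC and 96.0 CPM in FLOX but 9.85 CPM, 7 UMIs, in WT. Sinusoidal cells had 82.8, 90.7 and 80.0 CPM. No class difference of Jag1 passed the test over the 3 libraries, with log2 differences of -0.68 ± 0.46 for LepR stromal over sinusoidal (edgeR, adjusted p = 0.268), -0.22 ± 0.57 for LepR stromal over arterial (0.793) and -0.47 ± 0.54 for arterial over sinusoidal (0.610). Without the WT library, LepR stromal cells were lower than sinusoidal cells by a log2 difference of -0.87 (edgeR, adjusted p = 2.20e-05) and lower than arterial cells by -0.75 (0.000514). With the WT library kept, the first of these was also called when only those 2 classes were fitted (-0.70, edgeR adjusted p = 0.00190) and with cells thinned to 2000 UMIs (-0.56, 0.0103). Stromal Jag1 was below sinusoidal Jag1 within each library, at 0.512, 0.613 and 0.809 of its level in VC, FLOX and WT.

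The ligand UMIs therefore had a different make-up in each class. Jag1 made up 95.5%, 96.4% and 99.0% of the UMIs of the 4 ligand genes in LepR stromal cells of VC, FLOX and WT. In arterial cells Jag2 made up 43.1%, 46.5% and 42.9% and Dll4 26.8%, 25.4% and 36.5%, while Jag1 made up 18.6% in VC and 20.5% in FLOX and 5.56% in WT. In sinusoidal cells Jag1 made up 46.3%, 47.6% and 44.6%, Dll4 31.3%, 34.3% and 32.5%, Dll1 18.6%, 13.4% and 17.6%, and Jag2 3.83%, 4.71% and 5.21%. The sinusoidal shares were close to each other in the 3 libraries, and the arterial ones differed mainly in Jag1 of the WT library.

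**Figure D2:**
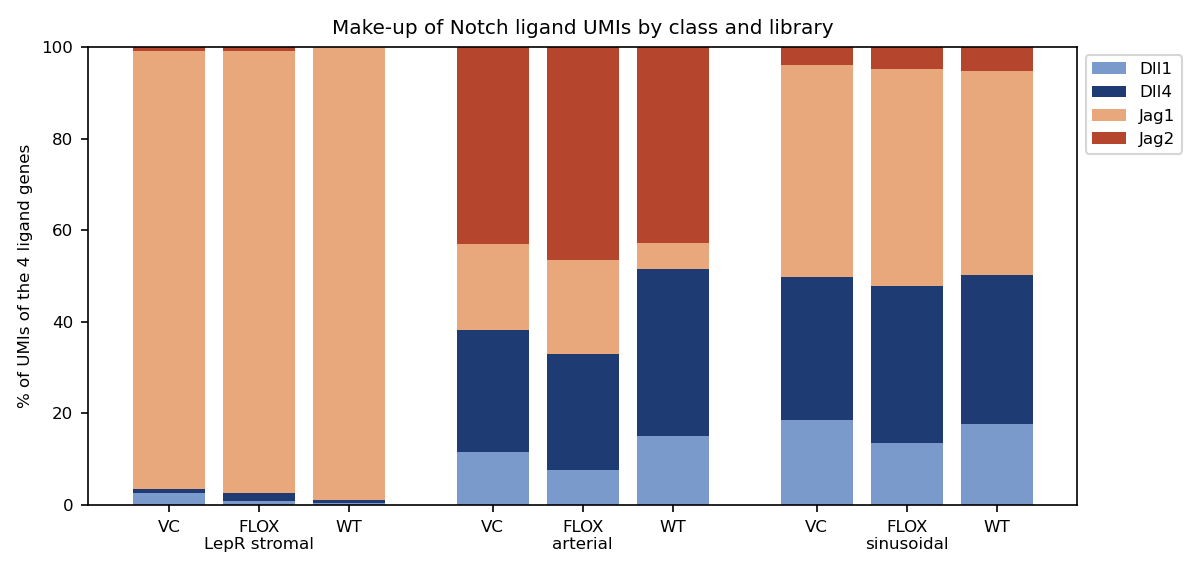
Share of each ligand gene (%) among the UMIs of Dll1, Dll4, Jag1 and Jag2, stacked to 100 for each class and library. Jag1 fills at least 95.5% of the stromal bars and 44.6% to 47.6% of the sinusoidal ones, and Jag2 fills 42.9% to 46.5% of the arterial ones.

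Notch1, the broadly used endothelial receptor gene (chromosome 2, 26457903 to 26516663, minus strand), was the highest of the 10 genes in endothelium. It had 45.9, 49.5 and 50.7 CPM in LepR stromal cells of VC, FLOX and WT, 358, 342 and 367 CPM in arterial cells, and 338, 327 and 322 CPM in sinusoidal cells. The endothelial classes were not separated by the test, with a log2 difference, arterial over sinusoidal, of -0.04 ± 0.11 (edgeR, adjusted p = 0.847), a value whose sign turned under several settings. LepR stromal cells were lower than sinusoidal cells by -2.77 ± 0.11 on the log2 scale (edgeR, adjusted p = 2.97e-10). Notch1 overlaps 0610009E02Rik and Gm13568 on the other strand, and the labels do not say whether the counting used strand.

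Notch4, the receptor gene that is largely confined to endothelium in mouse (chromosome 17, 34564268 to 34588503, plus strand), separated the classes in every library. LepR stromal cells had 3.01, 3.58 and 4.03 CPM in VC, FLOX and WT, arterial cells 101, 127 and 135 CPM, and sinusoidal cells 39.3, 45.2 and 43.0 CPM. No value of one class overlapped those of another. The log2 difference was 1.35 ± 0.11 for arterial over sinusoidal cells (edgeR, adjusted p = 2.49e-06) and -4.99 ± 0.15 for LepR stromal over arterial cells (8.33e-11), and both calls held in each of the 14 alternatives run. Within libraries its arterial level was 2.57-fold the sinusoidal one in VC, 2.80-fold in FLOX and 3.14-fold in WT.

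Hey1, a Hes-related repressor gene and a direct Notch target in arteries (chromosome 3, 8663359 to 8667256, minus strand), was almost absent from sinusoidal cells. LepR stromal cells had 10.48, 12.1 and 14.8 CPM in VC, FLOX and WT. Arterial cells had 64.1 CPM in VC and 66.7 CPM in FLOX, and 5.63 CPM, 4 UMIs, in WT. Sinusoidal cells had 17, 24 and 15 UMIs, or 0.791, 0.793 and 0.384 CPM. Arterial over sinusoidal cells, the log2 difference was 5.98 ± 0.66 (edgeR, adjusted p = 0.00108). That call was lost without the FLOX library (edgeR adjusted p = 0.0527). LepR stromal cells were higher than sinusoidal cells by 4.18 ± 0.62 on the log2 scale (edgeR, adjusted p = 0.00128), and this call held in each of the 13 alternatives run. LepR stromal over arterial, the log2 difference of -1.81 ± 0.56 had an edgeR adjusted p of 0.0389. The call was lost in 5 of 14 alternatives, among them leaving out the FLOX library (edgeR adjusted p = 0.424) or the VC library (0.307). In WT the ratio ran the other way, at 1.39 on the log2 scale with an interval of -0.07 to 3.33.

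Hes1, a repressor gene induced by Notch and by other signals (chromosome 16, 30064384 to 30067796, plus strand), was highest in LepR stromal cells. These had 258, 245 and 449 CPM in VC, FLOX and WT, arterial cells 209, 127 and 280 CPM, and sinusoidal cells 98.7, 85.6 and 128 CPM. Within each library the order was LepR stromal, arterial, sinusoidal, although across libraries the stromal and arterial values overlapped. The log2 difference was 1.56 ± 0.14 for LepR stromal over sinusoidal (edgeR, adjusted p = 5.50e-07), 0.78 ± 0.15 for LepR stromal over arterial (0.000669) and 0.78 ± 0.15 for arterial over sinusoidal (0.00163). Without the library block, the calls of LepR stromal over arterial (edgeR adjusted p = 0.0602) and of arterial over sinusoidal (0.0843) were lost.

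Nrarp, the feedback inhibitor gene of the pathway (chromosome 2, 25180758 to 25183339, plus strand), was an endothelial gene here, unlike Hes1. LepR stromal cells had 2, 10 and 1 UMIs in VC, FLOX and WT, arterial cells 97.7, 100.35 and 76.0 CPM, and sinusoidal cells 28.8, 29.4 and 44.6 CPM. Arterial values lay above all sinusoidal ones. The log2 difference, arterial over sinusoidal, was 1.33 ± 0.19 (edgeR, adjusted p = 0.000344), and LepR stromal cells were lower than sinusoidal cells by -5.90 ± 0.31 (1.73e-08). Stromal cells therefore held the target genes Hes1 and Hey1 with almost no Nrarp. The gene overlaps Gm38287 on the other strand. The E-box printed above for Nrarp lies directly upstream of this start.

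Rbpj, the transcriptional mediator of all Notch receptors (chromosome 5, 53466152 to 53657362, plus strand), had its highest level outside endothelium. LepR stromal cells had 206, 208 and 255 CPM in VC, FLOX and WT, arterial cells 48.9, 58.6 and 56.3 CPM, and sinusoidal cells 55.2, 62.1 and 70.6 CPM. The stromal values lay above all endothelial ones, and the endothelial classes overlapped. The log2 difference was 2.14 ± 0.12 for LepR stromal over arterial (edgeR, adjusted p = 1.13e-08), 1.82 ± 0.10 for LepR stromal over sinusoidal (4.39e-09) and -0.32 ± 0.12 for arterial over sinusoidal, which missed the threshold (0.0711).

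**Figure D3:**
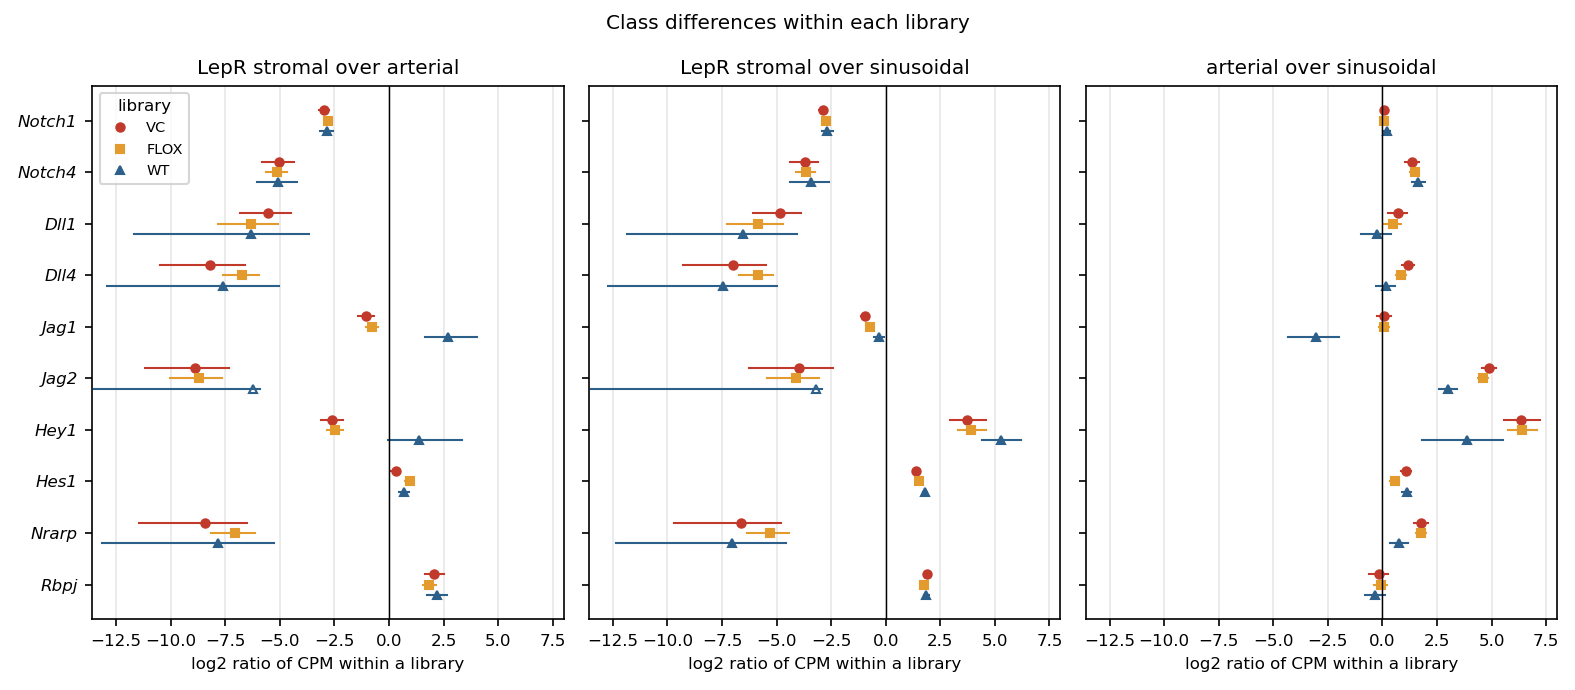
Log2 ratio of CPM between 2 classes within each library, for LepR stromal over arterial, LepR stromal over sinusoidal and arterial over sinusoidal cells; bars are exact 95% counting intervals, cut at the left edge where they run past it, and open symbols mark a class with 0 UMIs set at 3 UMIs. The 3 libraries lie together for Notch1, Notch4 and Rbpj, and the WT library departs from VC and FLOX for Jag1 and Hey1 in both contrasts with arterial cells.

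Levels were also read in B lineage cells (at least 2 UMIs of Cd79a, none of Cdh5 or Stab2 and under 5 of Cxcl12). Since this gate leaves out barcodes with endothelial or many stromal UMIs, its values may understate the free RNA of other droplets. There the 4 ligands, Hey1, Nrarp and Notch4 had at most 2.63 CPM in any library. Stromal Dll1 and Jag2 reached no more than 1.15 and 0.522 CPM, against up to 1.28 and 1.5001 CPM in B lineage cells, and stromal Nrarp was below the B lineage cells in every library. In FLOX alone, stromal Dll1 had 0.447 CPM (0.164 to 0.973) against 0 UMIs in B lineage cells, whose interval reaches 0.825 CPM. Stromal Dll4 reached 1.12 CPM (0.626 to 1.84) in FLOX, against at most 0.447 CPM (0.0541 to 1.615) in B lineage cells, and these intervals overlap. Stromal Jag1 and Hey1 had larger values than B lineage cells in every library, with the limit just given. With cells thinned to 2000 UMIs, Hey1 was found in 10.2% of VC, 13.8% of FLOX and 1.72% of WT arterial cells. In sinusoidal cells it was found in 0.122%, 0.0946% and 0.0672%, and in the B lineage gate in 0%, 0.310% and 0%. Unthinned, the arterial shares were 24.7%, 27.0% and 5.17%, at median depths of 9079, 6376 and 11754 UMIs, and those of the B lineage gate 0%, 0.303% and 0% at 5850, 10568 and 4941 UMIs. Thinning left out 1 VC, 1 FLOX and 0 WT arterial cells, 7, 29 and 18 sinusoidal cells, and 0, 7 and 11 cells of the B lineage gate.

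Some arterial cells held UMIs of several ligand genes. After thinning to 2000 UMIs, 14.8% of VC and 11.2% of FLOX arterial cells had UMIs of 2 ligand genes and 4.55% and 5.32% had UMIs of 3, against 0 of 58 WT arterial cells. In sinusoidal cells the shares with 2 ligand genes were 3.48%, 3.41% and 3.60% in VC, FLOX and WT. No thinned LepR stromal cell had more than 1. Among FLOX arterial cells, Hey1 was found in 27.9% of cells with Dll4 (12 of 43, Clopper-Pearson interval 15.3% to 43.7%) and in 9.66% of cells without it (5.38% to 15.7%). In VC arterial cells these shares were 19.0% (5.45% to 41.9%) and 7.46% (2.47% to 16.6%), and the intervals of each pair overlap. In sinusoidal cells with and without Dll4, Nrarp was found in 5.56% and 5.43% of VC, 6.63% and 5.002% of FLOX and 8.10% and 7.27% of WT cells.

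The WT arterial gate stood apart from the other 2 arterial gates in 4 of the 10 genes. Dll4, Jag1, Jag2 and Hey1 were at least 1.5-fold lower in WT than in VC and than in FLOX, where 9.90% of the 8423 genes compared were lower in WT by that measure and 7.94% higher. Jag1 was 8.89-fold (interval 4.14 to 22.8) and Hey1 11.4-fold (4.24 to 43.1) as high in VC as in WT. FLOX exceeded WT by 9.75-fold for Jag1 and 11.9-fold for Hey1. A UMI of Gja5 or Bmx was found in 23 of 89 VC arterial cells, 43 of 189 FLOX arterial cells and 0 of 58 WT arterial cells, whose Clopper-Pearson interval reaches 6.16%. This split was chosen after the values had been seen and is a description.

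Cells with Gja5 or Bmx held 51 of the 63 Hey1 UMIs of the arterial gate in VC and 64 of 107 in FLOX. In VC, Hey1 was 181 CPM in arterial cells with Gja5 or Bmx and 17.1 CPM in those without, and in FLOX it was 157 and 35.9 CPM. Jag1 was 152 and 61.5 CPM in VC, and 258 and 40.9 CPM in FLOX. Jag2 was 350.4 and 143 CPM in VC and 363 and 169 CPM in FLOX, while Dll4 was 184 and 103 CPM in VC and 228 and 81.9 CPM in FLOX. The 4 genes had the larger value in the cells with Gja5 or Bmx in both libraries. So had Notch1, with overlapping intervals in both libraries, and Nrarp, with overlapping intervals in VC. Hes1 had the smaller value in the cells with Gja5 or Bmx in both libraries, with overlapping intervals. It had 173 against 223 CPM in VC and 113 against 131 CPM in FLOX. For Dll1 the order differed between libraries, at 42.5 and 58.6 CPM in VC and 49.1 and 30.9 CPM in FLOX. Notch4 had 95.6 and 103 CPM in VC and 149.65 and 119 CPM in FLOX, and Rbpj 53.1 and 47.2 CPM in VC and 44.2 and 63.5 CPM in FLOX, so the order of the 2 kinds of cell differed between libraries. Gpihbp1, the capillary anchor of lipoprotein lipase, had 651 CPM in VC and 262.5 CPM in FLOX in cells with either gene, and 1282, 1366 and 1319.5 CPM in VC, FLOX and WT in cells with neither. Beside the VC and FLOX cells with neither gene, the 58 WT cells had smaller values of Hey1 (5.63 CPM), Jag1 (9.85 CPM), Jag2 (76.0 CPM) and Dll4 (64.7 CPM). The cells with Gja5 or Bmx also held more Ptprc, a blood cell gene, and more Notch3. Ptprc had 166 CPM in VC and 85.9 CPM in FLOX, against 10.0 and 15.0 CPM in the cells without. Notch3 had 35.4 CPM in VC and 27.0 CPM in FLOX, against 1.43 and 0 CPM in the cells without. Notch3 is a mural cell gene, but of the 3 classes it was highest in LepR stromal cells. The part of other cells' RNA in the split was not tested.

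**Figure D4:**
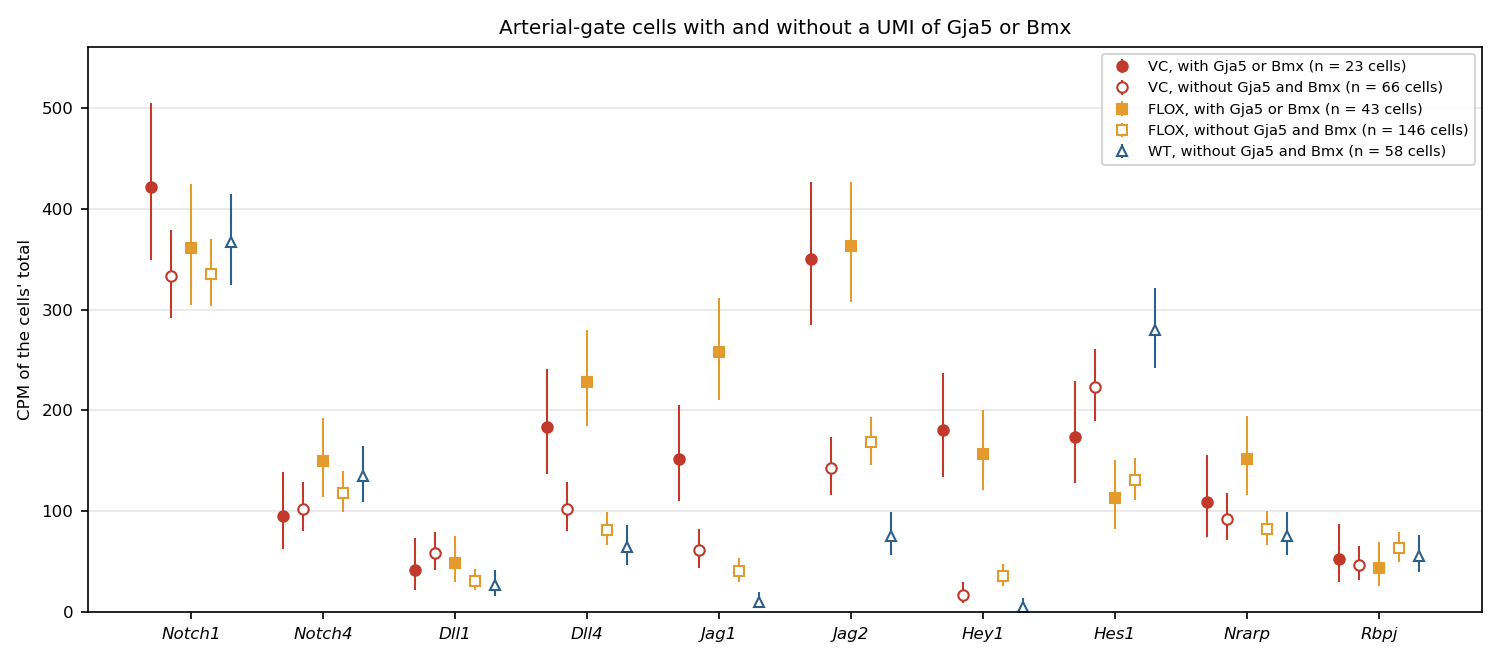
CPM of the 10 Notch genes in arterial-gate cells with a UMI of Gja5 or Bmx (filled) and without (open), for VC (circles), FLOX (squares) and WT (triangles, which has no cell with either gene); bars are exact 95% Poisson intervals. Hey1 stands at 181 and 157 CPM in the filled points of VC and FLOX and at 17.1, 35.9 and 5.63 CPM in the open points of VC, FLOX and WT.

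Other RNA in the arterial gate was measured beside these values. Over 1% of UMIs came from the 6 neutrophil granule genes in 6 VC, 9 FLOX and 0 WT arterial cells. A UMI of Acta2, Myh11, Tagln, Rgs5, Cspg4, Des or Notch3, the mural genes used here, stood in 11, 14 and 6 cells. Mylk and Myl9 of the smooth muscle and pericyte list were not used for this count, so cells with those genes could remain. Without the granule-rich cells, and likewise without the cells with mural genes, the 6 arterial over sinusoidal calls held. Without the mural-gene cells the LepR stromal over arterial call of Hey1 was lost (edgeR adjusted p = 0.0555).

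Of 53 further genes of the pathway 45 were tested. In arterial over sinusoidal cells 5 were higher (11.1%) and 10 lower (22.2%), beside 10.1% and 15.5% of all genes. In LepR stromal over sinusoidal cells 15 were higher (33.3%) and 20 lower (44.4%), beside 30.7% and 30.8%. In LepR stromal over arterial cells 12 were higher (26.7%) and 16 lower (35.6%), beside 27.5% and 22.0%. The receptor genes Notch2 and Notch3 were highest in LepR stromal cells, unlike Notch1 and Notch4. Notch2 had 92.7, 86.6 and 113 CPM in LepR stromal cells of VC, FLOX and WT, 6, 12 and 2 UMIs in arterial cells, and 24.0, 25.8 and 20.5 CPM in sinusoidal cells. Notch3, the mural cell receptor gene, had 154, 197 and 183 CPM in LepR stromal cells and at most 11.2 CPM in either endothelial class. The part of smooth muscle and pericyte RNA in its arterial UMIs was not tested. LepR stromal over sinusoidal, the log2 difference was 2.03 ± 0.15 for Notch2 and 8.30 ± 0.30 for Notch3 (edgeR, adjusted p = 1.20e-07 and 2.19e-08). In arterial over sinusoidal cells Notch2 was lower (-2.11 ± 0.31, edgeR adjusted p = 0.000317) and Notch3 higher (3.39 ± 0.67, 0.00639), the second from 11, 11 and 0 arterial UMIs. Of the 4 Hes and Hey genes tested beyond the members, Heyl was likewise stromal, at 50.7, 51.6 and 45.3 CPM, and 8.29 ± 0.38 above sinusoidal cells on the log2 scale (edgeR, adjusted p = 6.13e-08). Hey2 and Heyl were called higher in arterial than in sinusoidal cells from at most 7 arterial UMIs in a library, so the size of those differences is not given.

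Among the Fringe genes, whose enzymes add sugar to the receptors and tune their choice of ligand, Mfng was an endothelial gene. It had 0.431, 1.42 and 1.34 CPM in LepR stromal cells of VC, FLOX and WT, 29.5, 53.6 and 43.6 CPM in arterial cells and 53.6, 61.0 and 61.5 CPM in sinusoidal cells. Lfng and Mfng were lower in arterial than in sinusoidal cells, by log2 differences of -0.75 ± 0.19 and -0.62 ± 0.17 (edgeR, adjusted p = 0.0144 and 0.0158). Lfng had 46.8, 42.4 and 83.0 CPM in arterial and 80.5, 84.9 and 80.9 CPM in sinusoidal cells of VC, FLOX and WT, so the WT values did not show that difference. Among the genes of gamma-secretase, Psen2 was lower in arterial than in sinusoidal cells (-1.14 ± 0.14, edgeR adjusted p = 4.95e-05) and Aph1b higher (1.36 ± 0.36, 0.0143). Of the ubiquitination and endocytosis genes, Numb, an antagonist of the receptor, was higher (0.75 ± 0.12, 0.000610), Mib1, which activates ligands by ubiquitination, was lower (-0.48 ± 0.10, 0.00396), and so was Dtx4 (-2.96 ± 0.67, 0.00573). The coactivator genes Maml3, Kat2b and Maml2 were lower as well (-1.39 ± 0.18, -0.77 ± 0.15 and -0.64 ± 0.15, edgeR adjusted p = 0.000116, 0.00252 and 0.00827).

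Arterial and venous genes linked to Notch in endothelium were read beside the members. Of 9 tested, 5 were higher and 2 lower in arterial than in sinusoidal cells, where 10.1% and 15.5% of all genes were, among them Gja5 (6.99 ± 1.08), Bmx (3.61 ± 0.78), Efnb2 (3.38 ± 0.17) and the venous factor Nr2f2 (-3.01 ± 0.24), with edgeR adjusted p-values of 0.0026, 0.0165, 1.70e-07 and 2.46e-05. Gja5 and Bmx had 0 arterial UMIs in WT, so the size of their fitted differences rests on VC and FLOX. Unc5b (2.77 ± 0.24) and Nrp1 (0.61 ± 0.13) were higher as well and Nrp2 (-0.65 ± 0.16) lower, with edgeR adjusted p-values of 1.52e-05, 0.00388 and 0.0114. Cxcr4 (1.19 ± 0.46, edgeR adjusted p = 0.0781) and Ephb4 (0.22 ± 0.10, 0.141) were not called. Efnb2, an arterial ephrin and known Notch target, had 377, 456 and 423 CPM in arterial cells of VC, FLOX and WT. Its WT value lay between the others, unlike those of Hey1 and Jag1.

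Between genotypes, few Notch genes set VC apart from both controls. With 1 library per genotype no test was possible, and a gene was counted where VC was at least 1.5-fold higher, or lower, than FLOX and than WT, among genes that averaged 10 CPM or more and had 30 UMIs or more in all. In LepR stromal cells 5 members met these minima and 0 were counted, where 1.46% of 8626 genes were higher and 0.545% lower in VC. In sinusoidal cells 8 met them and 0 were counted, where 1.5% of 8309 genes were higher and 0.349% lower. In arterial cells 10 met them and 1, Dll1, was higher, where 3.23% of 8423 genes were higher and 4.63% lower. A share of 1 in 10 cannot be read as a property of the Notch genes.

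Dll1 in arterial cells was 1.52-fold (interval 1.02 to 2.25) as high in VC as in FLOX and 2.02-fold (1.18 to 3.61) as high as in WT, from 53, 57 and 19 UMIs. It was no longer counted with stricter gates, without likely doublets, without granule-rich cells or at 2-fold. The summed level of 8 interferon response genes was 4511, 622 and 599 CPM in the same cells of VC, FLOX and WT, and its part in the Dll1 level was not tested. In sinusoidal cells the VC to WT ratio of Dll1 was 1.05 (0.957 to 1.15) and the VC to FLOX ratio 1.29 (1.17 to 1.43).

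Jag1 in LepR stromal cells was lower in VC than in either control, but reached 1.5-fold against WT alone and was not counted. It stood at 0.761 (interval 0.663 to 0.872) of the FLOX level and at 0.654 (0.544 to 0.788) of the WT level. Scaling by TMM factors, given below, put the VC to WT ratio at 0.701, short of 1.5-fold. Rbpj in these cells was 0.987 (0.926 to 1.05) of the FLOX and 0.806 (0.738 to 0.881) of the WT level.

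Notch1 in sinusoidal cells, resting on 7268, 9898 and 12598 UMIs in VC, FLOX and WT, was 1.03-fold (1.00 to 1.07) the FLOX level and 1.05-fold (1.02 to 1.08) the WT level. Notch4 stood at 0.869 (0.796 to 0.947) and 0.914 (0.840 to 0.993) of these levels, Dll4 at 0.854 (0.795 to 0.918) and 0.959 (0.894 to 1.03), and Jag1 at 0.912 (0.859 to 0.968) and 1.03 (0.9754 to 1.10). These intervals exclude a 1.5-fold difference between the libraries in either direction. Scaling by TMM factors within a class would raise the log2 ratio of VC to WT by 0.10 in LepR stromal, 0.13 in arterial and 0.14 in sinusoidal cells, and it changed none of the counts of members in which VC stood apart.

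Other members stood apart in one of the control libraries. Hes1 in LepR stromal cells was 0.574 (0.534 to 0.616) of the WT level in VC and 0.546 (0.512 to 0.582) in FLOX, which made it 1 of 5 members higher in WT than in both others, where 3.77% of genes were higher and 5.07% lower. Nrarp in sinusoidal cells was 0.646 (0.588 to 0.708) of the WT level in VC and 0.660 (0.608 to 0.716) in FLOX, 1 of 8 members, where 1.10% of genes were higher in WT and 1.08% lower. With TMM factors these ratios were 0.710 and 0.701, short of 1.5-fold, and Nrarp was no longer counted. Hes1 in sinusoidal cells ran the same way, at 0.769 and 0.666 of the WT level, and Hes1 in arterial cells was lowest in FLOX, at 0.452 (0.370 to 0.552) of the WT level, where 2.49% of genes were lower and 2.39% higher in FLOX than in both others. In FLOX, 0 members stood apart in LepR stromal cells, where 0.441% of genes were higher and 0.336% lower, and 0 in sinusoidal cells, where 0.349% were higher and 0.277% lower. Of the 53 further pathway genes, 39 met the minima in LepR stromal, 33 in arterial and 33 in sinusoidal cells. VC stood apart by the 1.5-fold measure for 0 of them in LepR stromal and sinusoidal cells and for 2 in arterial cells, Dtx2 (higher) and Maml3 (lower), where 3.23% and 4.63% of all genes were. WT stood apart for 3 in LepR stromal cells, with Aph1c, Mib2 and Fbxw7 lower, and for 2 in arterial cells, with Lfng and Neurl1b higher, where 5.07% and 7.94% of genes were. FLOX stood apart for 1, Dtx3, lower in arterial cells, where 2.49% of genes were.

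**Figure D5:**
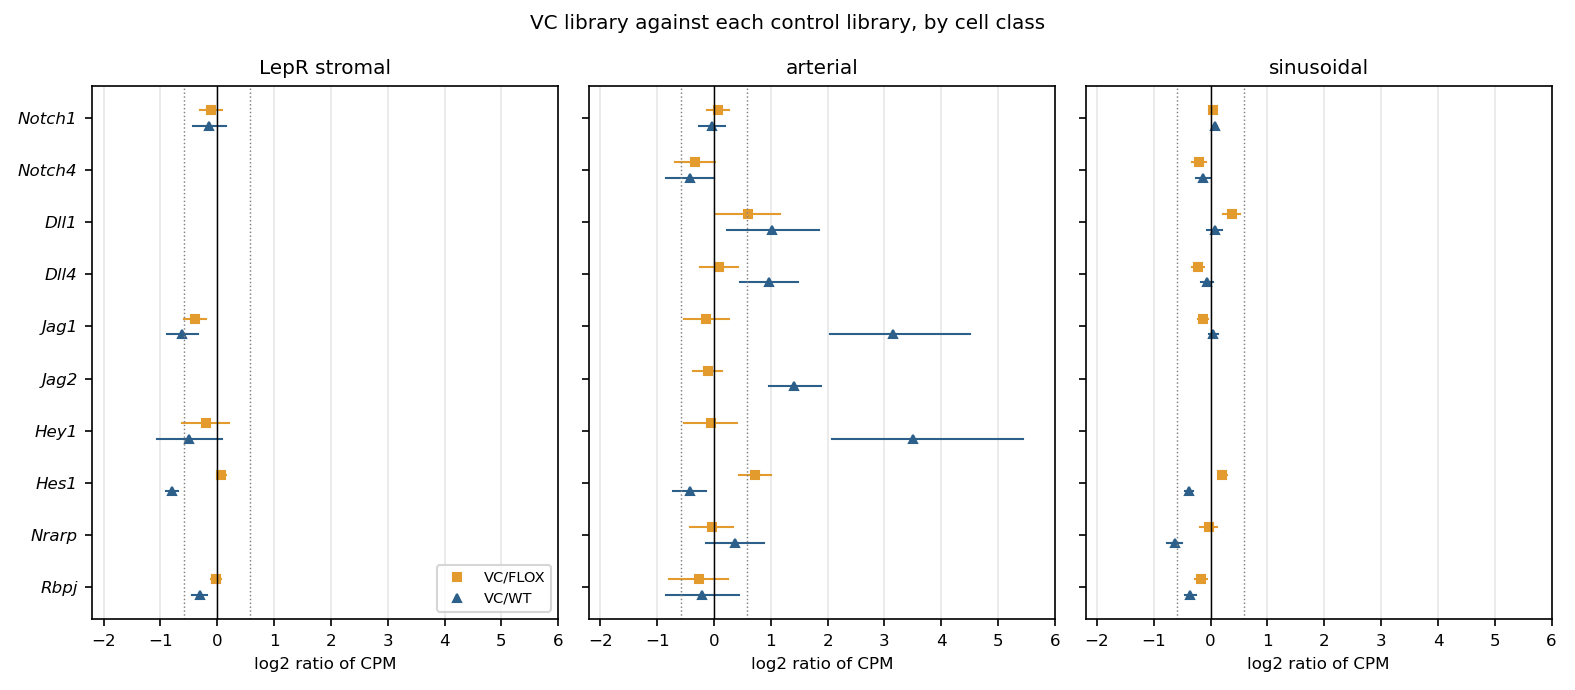
Log2 ratio of CPM of VC to FLOX (squares) and of VC to WT (triangles) for members that met the minima, in LepR stromal, arterial and sinusoidal cells; bars are exact 95% counting intervals and dotted lines mark 1.5-fold. In arterial cells Dll1 lies to the right for both ratios, whereas Dll4, Jag1, Jag2 and Hey1 lie to the right for WT alone.

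The genes most like each member in level over the 9 sums were found by Pearson's r of log2(CPM + 1) among 6734 genes of at least 20 CPM on average, and since the 9 sums share libraries and classes this is a description. Notch4 was most like Afdn, Atp1b3 and Itsn2 (r = 0.999, 0.998 and 0.998), Dll4 most like Icam2, Git2 and Gimap1 (0.997, 0.997 and 0.996), and Jag2 most like Slc9a3r2, Sox13 and Bcam (0.999, 0.995 and 0.994). Hey1, which is arterial and stromal, was most like Tgfb2, Ace and Rasgrf2 (0.990, 0.985 and 0.983), and Rbpj most like Sept8, Pdgfra and Ank2 (0.997, 0.997 and 0.996). Between 114 and 521 genes reached an r of 0.95 with Notch1, Notch4, Dll1, Dll4, Jag2, Nrarp or Rbpj, against 22 with Hey1 and 2 each with Jag1 and Hes1.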

How the data were processed

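The authors deposited raw UMI counts per gene and barcode, 1 filtered matrix per library, from the 10x Chromium 3′ kit v3.1 per the labels' protocols. Per the submitters' processing notes the tools were Cell Ranger 2.1.1 and Seurat 3.1 with mm10. The file headers carry version 3.1.0 instead, and which one made the counts could not be settled. The matrices held 3377 VC, 6529 FLOX and 5718 WT barcodes with 37361779, 61758462 and 56853574 UMIs, of which 2738, 5734 and 4318 passed the cell filter. Of these, 540, 1238 and 1004 were in no gate.

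Raw counts were summed per library and class and fitted with edgeR 4.0.16 (R 4.3.3; quasi-likelihood, TMM factors, filterByExpr, design of class and library). Genes were called at a Benjamini-Hochberg adjusted p of 0.05, with DESeq2 1.42.0 as an alternative. The library pairs the classes because each class comes from the same preparation. The fit was tested on simulated data. Genotypes were compared with exact Poisson intervals and exact conditional intervals of ratios. Where no UMI was found, a floor of 3 UMIs was used. The doublet treatment was the gates alone, with no caller, and an alternative that left out cells with any Ptprc UMI or at least 2 of Cd79a and the top 5% by UMIs.

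The members, gene lists, gates and alternatives were chosen with earlier results of these data known, and the alternatives on mural cells, on granule-rich cells and on TMM factors for FLOX or WT standing apart were chosen after seeing the data. Named are all 10 members, fixed others of the pathway, the 2 called genes of each list with the largest difference between arterial and sinusoidal cells, and the 3 genes most like a member. The 9 arterial and venous genes were a fixed list. Genes named outside these rules (Gpihbp1, Ptprc, Dtx2, Dtx3, Aph1c, Mib2, Fbxw7 and Neurl1b) were chosen after their values were seen.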

Additional observations from a re-analysis of the deposited data

Results flagged for a closer look

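Jag1 differed in direction between libraries in LepR stromal over arterial cells. The log2 ratio of CPM was -1.05 in VC (interval -1.40 to -0.68) and -0.79 in FLOX (-1.04 to -0.53) but 2.72 in WT (1.65 to 4.05), where arterial cells had 7 Jag1 UMIs. The difference between libraries was not tested, since each genotype is 1 library, and the WT arterial gate also had 0 UMIs of Gja5 and Bmx.

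Dll1 was also found in barcodes that passed the filter but met no gate, at 6.05 CPM in 540 VC barcodes, against 3.06 CPM in 1238 FLOX and 3.07 CPM in 1004 WT barcodes.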

How the results depend on the processing

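Of 138 comparisons of whole-class results with an alternative setting, 119 stayed within 1.5 times the reported count and 19 did not; of 772 for single genes, 14 turned in sign, 12 lost a call, 4 gained one and 39 without a test moved. Genes called in arterial over sinusoidal cells, 3362 in all, numbered 1765 with cells thinned to 2000 UMIs, and leaving out 1 library gave 1555 without FLOX, 2032 without VC and 3775 without WT. With thinned cells 5276 genes were called in LepR stromal over sinusoidal and 3594 in LepR stromal over arterial cells; leaving out 1 library gave 5971 to 8591 and 4519 to 6453. Without the library block, which is the pairing of the classes, the calls of Dll4 and Hes1 named in the report were lost and no other call of a member. The uncalled difference of Notch1 in arterial over sinusoidal cells turned positive with RLE factors (0.0614), DESeq2 (0.0597), only those 2 classes (0.0221), without FLOX (0.0583, the highest on leaving out 1 library, with -0.124 without WT the lowest), thinned cells (0.13), stricter gates (0.025), without likely doublets (0.10), without mural-gene cells (0.0158) and without granule-rich cells (0.0266). That of Jag1 turned to 0.16 with stricter gates, and in LepR stromal over arterial cells to 0.0481 with DESeq2, 0.172 without FLOX, 0.197 without VC and 0.084 with thinned cells; without WT it was -0.749. The cause was not tested. Genes in which VC stood apart from both controls numbered 173 in LepR stromal, 662 in arterial and 154 in sinusoidal cells; 2-fold gave 68, 211 and 83, no minimum CPM gave 842 in LepR stromal and 957 in sinusoidal cells, and thinned cells gave 606 and 241 there. Members counted were 1 in thinned LepR stromal cells (0 unthinned) and 2 in thinned arterial cells. In arterial cells 0 were counted with stricter gates, without likely doublets, without granule-rich cells or at 2-fold. The share of all genes under these settings is not given, so these counts cannot be read as a property of the members. With TMM factors, added after seeing the data, members in which WT stood apart in sinusoidal cells numbered 0 and not 1. Small counts limit the precision of the WT arterial values of Jag1 and Hey1, with 7 and 4 UMIs in 58 cells. Median depth per arterial cell was 9079, 6376 and 11754 UMIs in VC, FLOX and WT. Small counts also limit the stromal values of Dll1, Dll4, Jag2 and Nrarp, with 0 or 1 UMI each in WT.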

Other observations

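Barcodes outside the 3 gates also held Notch genes. Jag2 stood there at 17.3 CPM in VC, 12.4 CPM in FLOX and 2.32 CPM in WT, with a UMI in 5.37%, 6.30% and 1.49% of barcodes. Rbpj had 47.1, 61.2 and 82.1 CPM and Notch1 63.5, 66.8 and 59.7 CPM there. In the B lineage gate Hes1 had 17.0, 7.82 and 44.3 CPM and Notch1 14.0, 14.5 and 29.6 CPM, so WT was the highest library for both.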
